A study of Homo sapiens with 6 samples.

Results

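The TGF-beta and bone morphogenetic protein (BMP) pathway was examined in the human breast cancer line MDA-MB-453 through 48 genes chosen by name: 13 ligands, 5 genes of ligand processing and latency, 3 extracellular antagonists, 10 receptors, 8 SMADs, 5 SMAD regulators and 4 genes of the ID family. The count table listed 36517 genes, of which 47 were among the 48, and BMP2 was not analysed here. Of the 47, 40 had enough counts to be tested and 7 did not. The samples were 3 libraries of cells given a lentivirus with a negative-control hairpin (shNC, here called control) and 3 of cells given a lentivirus with a hairpin against tRF-1-Ser (here called shtRF), all labelled day 3. Both groups were of the same line, grown in the same medium, and carried a lentiviral hairpin. tRF-1-Ser is a small RNA that derives from the 3′ trailer of a precursor of serine tRNA. Libraries of messenger RNA do not measure it, so its knockdown was not checked here. The labels describe 1 line and name a single hairpin per group, and they do not say whether the replicates came from separate transductions or cultures, so the p-values measure the spread between these libraries.

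TGF-beta family ligands are made as precursors that convertases cut, and TGF-beta itself is stored in a latent form with binding proteins of the matrix. A released dimer brings type II and type I receptor kinases together, and the type I kinase phosphorylates the receptor-regulated SMADs, which enter the nucleus with the common SMAD. TGF-beta and activins mainly use one pair of receptor-regulated SMADs and BMPs another set, whose best-known target genes are the ID genes. In epithelial cells the pathway is known for slowing proliferation and, in carcinoma cells, for promoting a mesenchymal state.

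The libraries held 63541413 to 78917459 counts, the deepest 1.24 times the shallowest. At genes with counts of 1 to 4, 74.2% to 77.1% of the counts were even in each library, against 49.7% to 50.7% at counts of 1000 or more, so at low genes both mates of a pair appeared to be counted and fewer fragments than counts stood behind a value. The common dispersion corresponded to a coefficient of variation of 7.56% between replicates. The 4 epithelial markers EPCAM, KRT8, KRT18 and KRT19 summed to 3431 to 3526 CPM (counts per 1000000 library counts after scaling) in the controls and 4655 to 5171 CPM in shtRF. Most of that rise was in KRT8, at means of 1557 and 2691 CPM, and KRT18, at 386 and 601 CPM, whose exons overlap in part. EPCAM was at 504 and 552 CPM and KRT19 at 1045 and 1077 CPM. Of the luminal apocrine markers, FOXA1 had means of 136 CPM and 132 CPM. ERBB2 was lower in shtRF, at 406 CPM and 356 CPM (edgeR adjusted p = 0.0114). PIP was low but higher in shtRF, at 1.04 CPM and 3.76 CPM (3.59-fold, edgeR adjusted p = 3.05e-08). The 2 leukocyte markers summed to at most 0.0662 CPM and the 2 endothelial markers to at most 0.125 CPM in any library. The part of the marker shifts in the pathway results was not tested. In bulk RNA, fewer cells that express a gene and less of its RNA per cell cannot be told apart.

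Among the 40 tested pathway genes, 13 were higher and 8 lower in shtRF at an adjusted p under 0.05 (edgeR quasi-likelihood test, Benjamini-Hochberg adjustment over 19628 tested genes), and 19 did not pass. That is 52.5% of the tested members, read against 39.5% of all tested genes, with 32.5% higher and 20% lower against a background of 20.6% higher and 18.9% lower. Most of the changes were small: 3 of the 40 were called with more than a 1.5-fold change, namely GDF15, BMPR1B and ACVR2B, while 13.0% of all tested genes were. The 3 shtRF libraries lay entirely above or below the 3 controls for 23 of the 40, 12 above and 11 below, where 48.7% of all tested genes had groups that did not overlap. Log2 fold changes of the 40 ran from -0.73 to 1.46 with a median of 0.03. Their median size regardless of sign was 0.30, against 0.26 over all tested genes. The members were chosen with earlier results of these data known, so their shares are a description.

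**Figure D1:**
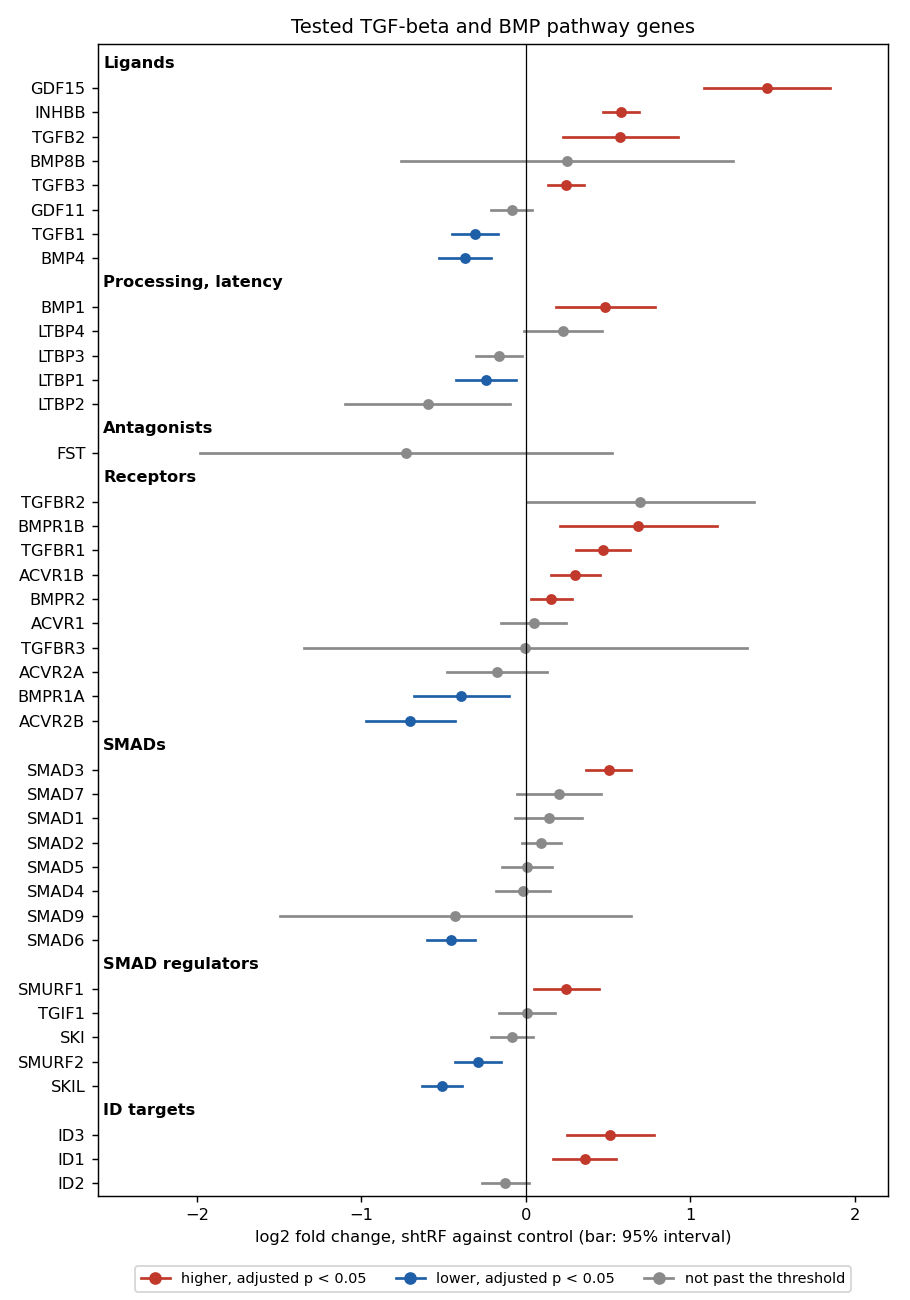
Log2 fold change of shtRF against control for the 40 tested genes of the pathway, grouped by role, with the 95% interval of the edgeR fit as a bar. Red marks the 13 genes higher and blue the 8 genes lower at an adjusted p under 0.05, and GDF15 stands farthest to the right at 1.46.

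**Figure D2:**
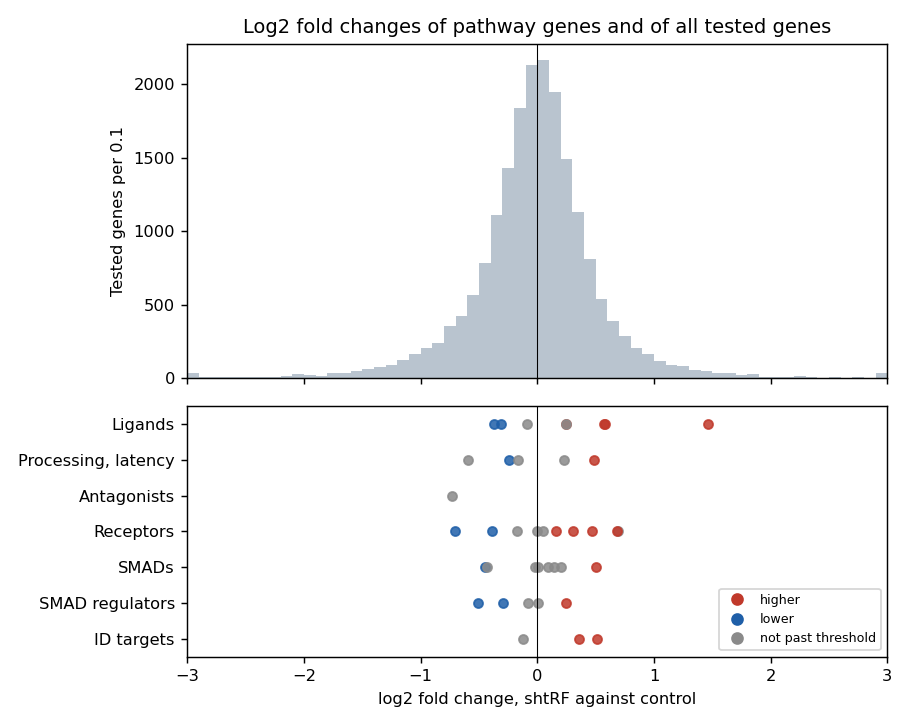
The upper panel counts all 19628 tested genes by log2 fold change in steps of 0.1, with genes beyond 3 in either direction placed in the last bar, and the lower panel places each tested pathway gene on the same axis by role. Apart from GDF15, the pathway genes lie between -0.73 and 0.70, in the bulk of the distribution.

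The ligands divided by member. GDF15, INHBB, TGFB2 and TGFB3 were higher in shtRF, and TGFB1 and BMP4 were lower. So of the 8 ligands with enough counts 4 rose, 2 fell and 2 did not pass the test, with a median log2 fold change of 0.25. That median ranged from 0.06 without shtRF 2 to 0.40 without control 1, and was 0.10 without control 3 and 0.16 without control 2. In the main fit it lay between TGFB3 and BMP8B, a ligand under 1 CPM. GDF15, a stress-induced and divergent member of the family that signals through GFRAL, showed the widest difference. It was at 1.01, 1.34 and 1.14 CPM in the controls and 3.82, 2.75 and 3.10 CPM in the shtRF libraries, from 66, 101 and 91 counts against 268, 189 and 192. Every shtRF library was above every control, a 2.76-fold rise (log2 fold change 1.46 ± 0.18 SE, n = 3 per group, edgeR adjusted p = 1.33e-06). The gene lies at chr19:18374731-18389176 on the plus strand (GRCh38, as in the count table).

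INHBB encodes the beta B subunit of activin B and inhibin B and was among the more abundant genes of the set. It measured 132, 139 and 131 CPM in the controls and 197, 201 and 202 CPM in shtRF. The groups were far apart relative to their spread, and the 1.49-fold rise had an edgeR adjusted p of 8.27e-09. The gene lies at chr2:120346143-120351808 on the plus strand. TGFB3, the ligand with the most counts, was at 211, 207 and 214 CPM and 237, 256 and 255 CPM, a smaller but separate 1.18-fold rise (edgeR adjusted p = 0.000815). TGFB2 was low, at 1.94, 1.91 and 1.53 CPM against 2.79, 2.49 and 2.71 CPM, and rose 1.49-fold (edgeR adjusted p = 0.00910). Of its exonic bases, 26.6% also belong to TGFB2-OT1, a transcript annotated on the same strand that had 4 to 28 counts per library.

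TGFB1, the most studied of the 3 TGF-beta ligands, moved the other way. It was at 25.9, 25.4 and 23.9 CPM in the controls and 19.5, 20.3 and 20.9 CPM in shtRF, a 1.24-fold fall with no overlap between groups (edgeR adjusted p = 0.000858). HNRNPUL1 on the opposite strand holds 6.64% of the exonic bases of TGFB1, and its own log2 fold change was -0.27. The part of this overlap in the TGFB1 value was not tested. BMP4, the only BMP ligand above 1 CPM, was at 27.3, 32.9 and 35.0 CPM and 25.5, 23.8 and 24.3 CPM, a 1.29-fold fall (edgeR adjusted p = 0.000536). Again all 3 shtRF libraries were below all 3 controls, with the lowest control close to the highest shtRF library.

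GDF11, a ligand closely related to myostatin, was at 33.7, 32.8 and 35.0 CPM and 32.1, 32.5 and 30.9 CPM. Its groups did not overlap, yet the log2 fold change of -0.086 (95% interval -0.21 to 0.038) had an edgeR adjusted p of 0.276. BMP8B averaged 0.308 CPM and 0.359 CPM, and its interval of -0.76 to 1.26 on the log2 scale was too wide to place it. BMP8B has a near-identical neighbour, BMP8A, so reads of the pair may be split between them. The remaining ligands were at the limit of detection. INHBA, the beta A subunit of activin A, had 0 counts in every control and 8, 2 and 12 counts in the shtRF libraries, where a count of 0 over the control group allows a level of up to 0.0136 CPM (3 counts), or 0.0272 CPM (6 counts) if both mates of a fragment were counted. No fold is given for it at this depth. BMP3 had 4 counts in all controls together and 2 in shtRF, BMP6 had 0 and 3, and BMP7 had 7 and 0.

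Expressed per length as CPM per kilobase of exon (RPKM), the ligand messages of these cells came mostly from TGFB3 and INHBB. The summed RPKM of the ligands was 108 ± 1.60 in the controls and 133 ± 2.71 in shtRF (SD, n = 3). In the controls TGFB3 made up 39.9% of the sum and INHBB 38.8%, and the order of the pair differed between libraries. In shtRF INHBB held 46.9% and TGFB3 38.1%, with INHBB ahead in all 3 libraries. BMP4 went from 9.56% to 5.99% and TGFB1 from 7.19% to 4.69%, while GDF15, despite its fold change, remained a small share at 0.518% and 1.16%. Lengths are those of all annotated exons of a gene together, so an isoform that uses few of them is understated. These shares are a description and were not tested. GDF9, a ligand of the family outside the 48 genes and this sum, was at means of 13.2 RPKM in the controls and 15.1 RPKM in shtRF. UQCRQ on the opposite strand overlaps GDF9, of whose exonic bases 9.33% lie in other genes.

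**Figure D3:**
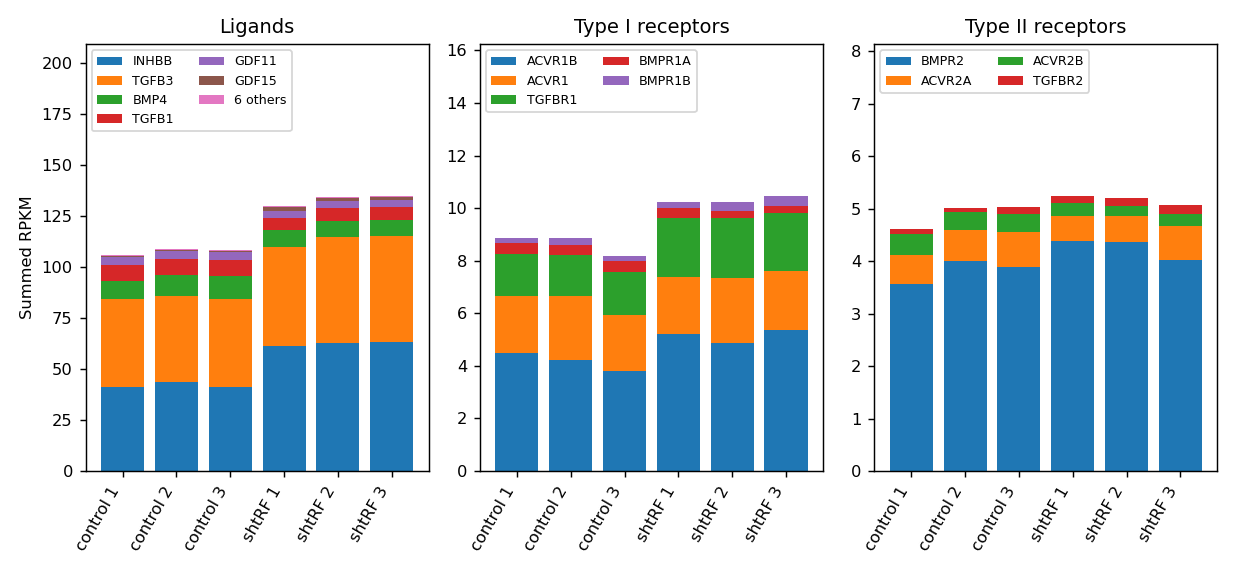
Summed RPKM of the 12 ligands, 5 type I receptors and 4 type II receptors in each library, stacked by gene, with a separate axis from 0 in each panel. The INHBB segment is taller in the 3 shtRF libraries than in the 3 controls, and BMPR2 makes up most of the type II receptor sum in all 6.

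The genes of processing and latency showed 1 rise and 1 fall among 5. BMP1, which despite its name is a metalloproteinase that matures procollagens and frees latent TGF-beta, was at 5.07, 3.50 and 4.27 CPM in the controls and 5.14, 5.61 and 7.18 CPM in shtRF. The highest control and the lowest shtRF library nearly met, and the 1.40-fold rise had an edgeR adjusted p of 0.0107. LTBP1 binds latent TGF-beta in the matrix, and its 12.6, 13.2 and 11.2 CPM in the controls went to 10.4, 10.8 and 10.1 CPM, a 1.18-fold fall (edgeR adjusted p = 0.0314). Without control 2 the adjusted p of BMP1 was 0.0812 and without shtRF 3 it was 0.107, and that of LTBP1 was 0.0504 to 0.126 without any 1 of the libraries except control 3. The other latent TGF-beta binding proteins did not pass the test. LTBP2 was at 1.11, 1.34 and 1.64 CPM and 0.925, 0.743 and 1.05 CPM, LTBP3 at 45.1, 39.4 and 37.5 CPM and 36.7, 34.8 and 37.4 CPM, and LTBP4 at 8.22, 6.96 and 5.85 CPM and 8.80, 7.97 and 7.79 CPM. The groups of LTBP2 and LTBP3 did not overlap, while those of LTBP4 did. LTBP2 had a log2 fold change of -0.60 (adjusted p = 0.0554), LTBP3 of -0.16 (adjusted p = 0.0566) and LTBP4 of 0.23 (adjusted p = 0.126), all by edgeR. Leaving out control 1 gave LTBP2 and LTBP4 an adjusted p of 0.0324 and 0.0251, and leaving out control 3 gave LTBP3 one of 0.0123.

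The 3 antagonists among the 48 genes, NOG, GREM1 and FST, were close to absent. NOG, which encodes the BMP trap noggin, had 4 counts in the controls together and 0 in shtRF, where a count of 0 over the group allows up to 0.0149 CPM, or 0.0299 CPM if both mates were counted. GREM1, another BMP antagonist, had 4 and 0 counts as well. FST, which encodes the activin trap follistatin, was the 1 antagonist tested, at 0.184, 0.0794 and 0.326 CPM and 0.171, 0.116 and 0.0645 CPM. The groups overlapped, and the log2 interval of -1.98 to 0.52 (edgeR adjusted p = 0.368) left its direction undetermined at this depth.

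The receptors were all measured, and of the 10 tested 4 rose, 2 fell and 4 did not pass, with a median log2 fold change of 0.10, which became 0.22 without control 1 and 0.21 without shtRF 1. The type I receptors TGFBR1, ACVR1B and BMPR1B and the type II receptor BMPR2 were higher in shtRF, and the type I receptor BMPR1A and the type II receptor ACVR2B were lower. The calls of BMPR1A, BMPR1B and BMPR2 were each lost in 3 or more alternative analyses.

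TGFBR1, the type I receptor for TGF-beta, was at 11.0, 10.6 and 11.4 CPM in the controls and 15.2, 15.5 and 14.9 CPM in shtRF. The replicates lay close together and the groups apart, and the rise was 1.38-fold (log2 fold change 0.47 ± 0.079 SE, edgeR adjusted p = 5.34e-05). ACVR1B, the main type I receptor for activins, was at 25.6, 24.1 and 21.7 CPM and 29.6, 27.7 and 30.6 CPM, a 1.23-fold rise without overlap (edgeR adjusted p = 0.00162). ACVR1, which serves BMPs and some activins, was at 8.64, 9.66 and 8.39 CPM and 8.74, 9.90 and 8.95 CPM. Its groups overlapped and its log2 interval was -0.15 to 0.25 (edgeR adjusted p = 0.735).

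The type I receptors for BMPs went opposite ways. BMPR1A was at 4.80, 4.57 and 4.66 CPM in the controls and 4.31, 3.03 and 3.32 CPM in shtRF, where shtRF 1 lay nearest to the controls. The 1.31-fold fall had an edgeR adjusted p of 0.0284. BMPR1B was low, at 1.08, 1.64 and 1.08 CPM against 1.44, 2.29 and 2.40 CPM, and its groups overlapped, since control 2 was above shtRF 1. The fitted rise was 1.61-fold with an SE of 0.23 on the log2 scale and an edgeR adjusted p of 0.0205. Both calls were lost on leaving out any 1 of several libraries. The edgeR adjusted p of BMPR1A was 0.0678 without control 1, 0.156 without shtRF 2 and 0.107 without shtRF 3. That of BMPR1B was 0.0846 without control 1, 0.0728 without control 3, 0.0883 without shtRF 2 and 0.111 without shtRF 3.

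Of the type II receptors, BMPR2, which binds BMPs, had the most RNA. It was at 42.4, 47.7 and 46.3 CPM and 52.2, 52.0 and 47.8 CPM, the groups separated only narrowly, and the 1.11-fold difference (edgeR adjusted p = 0.0456) passed the threshold in 4 of the 14 alternative analyses. ACVR2B, a receptor for activins, was at 6.44, 5.65 and 5.25 CPM in the controls and 3.99, 3.13 and 3.52 CPM in shtRF. Every shtRF library was below every control, a 1.63-fold fall (log2 fold change -0.70 ± 0.13 SE, edgeR adjusted p = 0.000157). It lies at chr3:38453851-38493142 on the plus strand. Its paralog ACVR2A was at 3.77, 3.88 and 4.51 CPM and 3.13, 3.28 and 4.39 CPM, with overlapping groups, a log2 interval of -0.48 to 0.13 and an edgeR adjusted p of 0.372. ORC4 on the opposite strand, which holds 7.98% of the exonic bases of ACVR2A, had 1216 to 1564 counts per library and a log2 fold change of 0.23. Whether ACVR2A and ACVR2B differed in response was not tested.

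TGFBR2, the type II receptor that TGF-beta itself needs, was under 1 CPM in every library, at 0.400, 0.344 and 0.626 CPM in the controls and 0.683, 0.714 and 0.839 CPM in shtRF. All 3 shtRF libraries were above the controls, but the log2 fold change of 0.70 ± 0.33 SE had an edgeR adjusted p of 0.105. TGFBR3, the co-receptor betaglycan, was lower still, with means of 0.249 CPM and 0.247 CPM and a log2 interval of -1.35 to 1.34, so a difference within that range was not detectable at this depth. Per length, the type II receptors summed to 4.89 ± 0.237 RPKM in the controls and 5.18 ± 0.0943 RPKM in shtRF (SD, n = 3), and BMPR2 held 78.2% and 82.3% of that sum. TGFBR2 held 1.98% and 3.07%. The type I receptors summed to 8.63 ± 0.406 RPKM and 10.3 ± 0.141 RPKM, with ACVR1B as the main component at 48.4% and 49.9% and TGFBR1 at 18.7% and 21.5%.

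**Figure D4:**
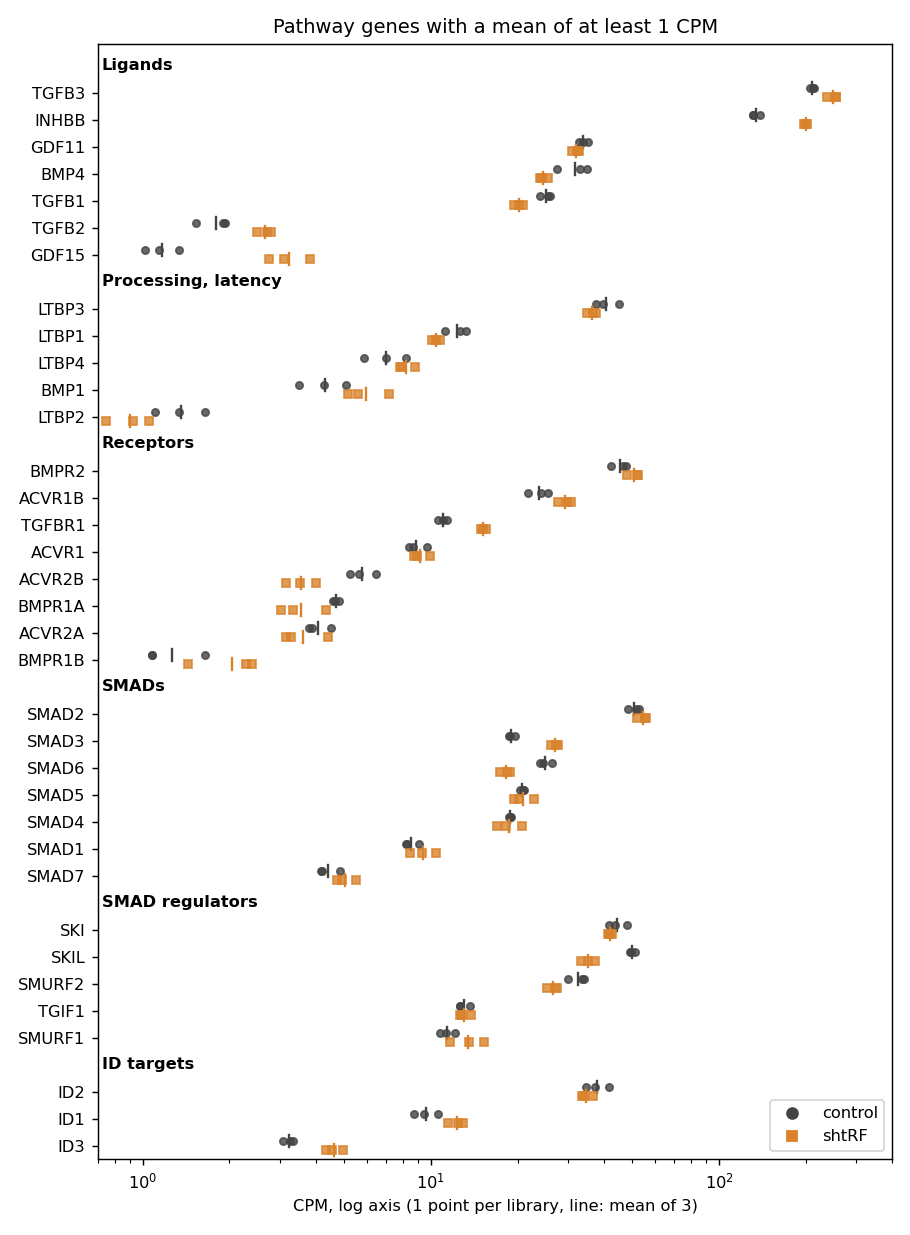
CPM of the 35 pathway genes with a mean of at least 1 CPM on a log axis, 1 point per library, grouped by role and ordered by mean, with a line at each group mean (n = 3). The control and shtRF points of GDF15, INHBB, TGFBR1, ACVR2B, SMAD3, SMAD6 and SKIL lie apart, while those of SMAD4, SMAD5 and TGIF1 intermingle.

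Among the 8 SMADs, 1 rose, 1 fell and 6 did not pass the test. SMAD3, a receptor-regulated SMAD of the TGF-beta and activin branch, rose, and SMAD6, the inhibitory SMAD that mainly restrains BMP signalling, fell. SMAD3 was at 18.8, 19.6 and 18.6 CPM in the controls and 27.6, 26.2 and 27.2 CPM in shtRF. The replicates of each group were tight, and the rise was 1.42-fold (log2 fold change 0.50 ± 0.066 SE, edgeR adjusted p = 2.31e-06). SMAD6 was at 24.6, 23.9 and 26.4 CPM in the controls and 18.8, 17.4 and 18.4 CPM in shtRF. The groups were apart and the fall was 1.37-fold (log2 fold change -0.45 ± 0.07 SE, edgeR adjusted p = 1.94e-05). Both genes lie on the same chromosome, SMAD6 at chr15:66702228-66782848 and SMAD3 at chr15:67063763-67195195, both on the plus strand.

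SMAD2, the close relative of SMAD3, was at 52.8, 48.3 and 51.6 CPM and 52.0, 55.3 and 55.8 CPM, with overlapping groups and a log2 interval of -0.024 to 0.21 (edgeR adjusted p = 0.205). SMAD4, the common partner of the receptor-regulated SMADs, was at 19.0, 18.8 and 18.7 CPM and 20.7, 17.0 and 18.3 CPM, with a log2 interval of -0.18 to 0.15 (edgeR adjusted p = 0.895). For both genes any difference larger than those intervals is outside what the fit allows at the 95% level. Of the BMP branch, SMAD1 was at 8.22, 9.07 and 8.27 CPM and 8.46, 9.29 and 10.4 CPM, with a log2 interval of -0.065 to 0.34 (edgeR adjusted p = 0.284). SMAD5 was at 20.3, 21.0 and 20.9 CPM and 22.8, 20.2 and 19.5 CPM, with a log2 interval of -0.15 to 0.16 (edgeR adjusted p = 0.965). Both had overlapping groups. Other annotated transcripts hold 6.21% of the exonic bases of SMAD1, 7.37% of SMAD4 and 6.95% of SMAD5. SMAD9, the remaining receptor-regulated SMAD for BMPs, averaged 0.306 CPM and 0.228 CPM, too low to place its direction. SMAD7, the inhibitory SMAD that blocks both branches, was at 4.18, 4.14 and 4.82 CPM and 5.51, 4.92 and 4.71 CPM, with overlapping groups and a log2 interval of -0.052 to 0.46 (edgeR adjusted p = 0.206). Per length, SMAD3 went from 16.3% to 22.2% of the summed SMAD RPKM and SMAD6 from 22.7% to 16.0%, in a sum of 12.8 ± 0.190 and 13.3 ± 0.429 RPKM (SD, n = 3).

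The SMAD regulators are ubiquitin ligases that remove SMADs and receptors, and nuclear corepressors that hold SMAD complexes silent. Of 5, SKIL and SMURF2 fell, SMURF1 rose and SKI and TGIF1 did not pass. SKIL, which encodes the corepressor SnoN, a known target of TGF-beta signalling, was at 49.0, 49.6 and 51.3 CPM in the controls and 33.1, 37.1 and 35.2 CPM in shtRF. No shtRF library came near the controls, and the fall was 1.42-fold (log2 fold change -0.51 ± 0.059 SE, edgeR adjusted p = 4.05e-07). Its relative SKI, with means of 44.4 CPM and 41.9 CPM, had a log2 interval of -0.21 to 0.043 (edgeR adjusted p = 0.300), and the homeodomain corepressor TGIF1 one of -0.16 to 0.18 (edgeR adjusted p = 0.955).

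The ligases SMURF1 and SMURF2, which share substrates, moved in opposite directions. SMURF2 was at 33.5, 34.1 and 30.0 CPM in the controls and 27.1, 27.3 and 25.3 CPM in shtRF, a 1.22-fold fall without overlap (edgeR adjusted p = 0.00124). SMURF1 was at 10.8, 11.3 and 12.1 CPM and 11.6, 15.3 and 13.6 CPM. Control 3 was above shtRF 1, and the 1.19-fold rise (edgeR adjusted p = 0.0442) passed the threshold in 5 of the 14 alternative analyses. SMURF1 shares 9.37% of its exonic bases with AC004893.11 on the opposite strand.

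The ID genes encode inhibitors of helix-loop-helix transcription factors and are the standard readout of BMP signalling. ID1 and ID3 rose in shtRF, ID2 did not pass the test and ID4 had too few counts. ID1 was at 10.6, 9.45 and 8.77 CPM in the controls and 12.5, 11.5 and 13.0 CPM in shtRF. All 3 shtRF libraries were above all 3 controls, a 1.28-fold rise (log2 fold change 0.36 ± 0.092 SE, edgeR adjusted p = 0.00339). ID3 was lower, at 3.07, 3.26 and 3.33 CPM and 4.95, 4.31 and 4.55 CPM, and rose 1.43-fold, again without overlap (log2 fold change 0.51 ± 0.13 SE, edgeR adjusted p = 0.00268). ID2, the ID gene with the most RNA, was at 37.1, 41.6 and 34.4 CPM and 36.6, 33.4 and 33.9 CPM. Its groups overlapped, with a log2 interval of -0.27 to 0.019 and an edgeR adjusted p of 0.166. ID4 had 3 counts in the controls together and 4 in shtRF. Per length, ID2 made up 64.0% of the summed ID RPKM in the controls and 55.6% in shtRF, ID1 29.2% and 35.3%, and the sum itself was 26.7 ± 1.93 and 28.3 ± 1.28 RPKM (SD, n = 3).

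The start regions of SMAD6 and SKIL, which fell, and of ID1, which rose, are printed here because these genes are known feedback or target genes of SMADs. Each is the 250 bases before the start site in RefSeq, written 5′ to 3′ on the strand of the gene, build GRCh38.p14. SMAD6 lies at chr15:66701986-66702235 on the plus strand, SKIL at chr3:170357465-170357714 on the plus strand and ID1 at chr20:31605039-31605288 on the plus strand. Capitals mark matches, on either strand, to 3 patterns: GTCTAGAC, the palindromic SMAD-binding element, GGCGCC, a GC-rich element bound by SMADs, and CAGAC, the SMAD box. The patterns do not overlap each other in these windows. In the count table SMAD6, ID1 and SKIL start inside these windows, at bases 66702228, 31605283 and 170357678, and the start of SMAD6 falls within its marked GTCTAGAC.
SMAD6: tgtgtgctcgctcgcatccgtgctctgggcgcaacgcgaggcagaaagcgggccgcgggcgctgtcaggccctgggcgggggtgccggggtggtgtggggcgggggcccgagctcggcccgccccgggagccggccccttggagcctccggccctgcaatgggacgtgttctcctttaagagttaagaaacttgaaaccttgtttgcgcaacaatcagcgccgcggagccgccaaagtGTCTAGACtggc
SKIL: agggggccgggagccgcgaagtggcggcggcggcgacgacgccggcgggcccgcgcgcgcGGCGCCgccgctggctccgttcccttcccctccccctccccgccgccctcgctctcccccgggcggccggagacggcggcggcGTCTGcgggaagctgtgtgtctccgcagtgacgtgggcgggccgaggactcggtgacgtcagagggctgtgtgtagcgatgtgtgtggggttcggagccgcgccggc
ID1: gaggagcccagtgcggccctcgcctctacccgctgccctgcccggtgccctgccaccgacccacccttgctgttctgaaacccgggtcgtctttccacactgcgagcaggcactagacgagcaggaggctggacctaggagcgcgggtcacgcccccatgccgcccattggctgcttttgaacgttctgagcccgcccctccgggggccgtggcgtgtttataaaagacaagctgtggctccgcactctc
SMAD6 held GTCTAGAC from 12 to 5 bases before the start site. SKIL held GGCGCC from 190 to 185 bases before it and CAGAC on the opposite strand, read as GTCTG here, from 107 to 103 bases before it, and the ID1 window held none of the 3. Windows of the same length were on hand for 42 of the 48 genes, 80 windows in all. GTCTAGAC was in 1 of the 80 (1.25%), against 0.182% of the 35116 windows of all genes, GGCGCC in 16 (20%) against 16.4%, and CAGAC in 32 (40%) against 38%. SMAD6 was the 1 gene of the 42 with GTCTAGAC in its window. A match of letters is a description of the sequence and not a measured binding site.

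The pathway holds further genes, and 87 of them, listed by role, were described in the same fit. Of these, 84 had a row and 52 were tested. Of the 52, 15 were higher, 7 lower and 30 did not pass, so 42.3% were called against 39.5% of all tested genes. Of the further genes of ligand processing and latency, 5 of the 7 tested rose and 0 fell, with a median log2 fold change of 0.94. That is 71.4% higher, against 20.6% of all tested genes. Of the 5 members in this role, 1 rose and 1 fell, with a median of -0.16. Of the called genes in other roles, NBL1 and RGMB, both lower, share 47.3% and 45.6% of their exonic bases with overlapping genes. Unlike NOG, GREM1 and FST, several antagonists of this list were measured, with NBL1 at means of 30.2 and 21.6 CPM, TWSG1 at 9.46 and 11.5 CPM, which rose, and FSTL3 at 3.38 and 4.23 CPM, which did not pass. The processing list was small, and its count was not tested against other genes. The further genes were chosen with earlier results of these data known. Their shares are therefore a description and not a result about the pathway.

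ITGB6, the integrin subunit that pairs with ITGAV to free latent TGF-beta, was at 0.707, 1.47 and 1.19 CPM in the controls and 5.27, 5.48 and 6.03 CPM in shtRF, a 4.93-fold rise (edgeR adjusted p = 1.69e-09). THBS1, or thrombospondin, a secreted activator of latent TGF-beta, had the highest RPKM of the members and further genes, and was at 910, 931 and 934 CPM and 2521, 2482 and 2583 CPM, a 2.73-fold rise (edgeR adjusted p = 6.28e-15). Neither gene had a shtRF library near the controls. CTD-2033D15.3 on the opposite strand holds 7.56% of the exonic bases of THBS1, had 808 to 2136 counts per library and rose by 1.29 on the log2 scale. FURIN and PCSK6, proprotein convertases that cut ligand precursors, rose as well: FURIN from means of 11.4 to 22.0 CPM (1.92-fold, edgeR adjusted p = 1.39e-09) and PCSK6 from 5.90 to 11.1 CPM (1.87-fold, edgeR adjusted p = 1.33e-07). PCSK6 shares 20% of its exonic bases with RP11-299G20.2 on the opposite strand, which had 56 to 145 counts per library.

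Of the remaining named genes outside the targets of TGF-beta, 4 fell and 1 rose. BAMBI, a pseudoreceptor without a kinase domain, was at 13.2, 13.5 and 11.5 CPM and 6.28, 7.66 and 5.47 CPM, a 1.97-fold fall (edgeR adjusted p = 3.02e-07). TGIF2, the paralog of TGIF1, was at 7.38, 9.10 and 8.79 CPM and 4.07, 3.74 and 2.93 CPM, a 2.35-fold fall (edgeR adjusted p = 7.99e-08). The groups of both genes were apart, and TGIF2 shares 8.14% of its exonic bases with the readthrough gene TGIF2-C20orf24, whose log2 fold change was -0.21. MSX2, a homeobox gene that BMPs induce, fell from a mean of 16.2 to 8.32 CPM (1.94-fold, edgeR adjusted p = 2.59e-08), the direction opposite to that of ID1 and ID3. It was 1 of 3 tested BMP targets of the further list, of which 1 rose and 1 fell. Their median log2 fold change of 0.73 was the value of HEY1, at means of 0.113 and 0.185 CPM. That median therefore gives no direction for the group. ATOH8, a helix-loop-helix gene chosen for mention after its values were seen, was at 0.584, 0.861 and 0.451 CPM and 0.584, 1.21 and 1.68 CPM, with overlapping groups and a 1.82-fold rise (edgeR adjusted p = 0.0477), and HEY1, a Notch and BMP target, had a log2 interval of -0.48 to 1.94 (edgeR adjusted p = 0.353). AMH, the anti-Müllerian hormone and a ligand of the family, fell from 1.79 to 1.05 CPM (1.71-fold, edgeR adjusted p = 0.00527). NEO1, the neogenin receptor of repulsive guidance molecules, which act as BMP co-receptors, rose from 1.36 to 2.31 CPM (1.70-fold, edgeR adjusted p = 0.00580).

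Of the 9 tested TGF-beta target genes, 3 rose and 1 fell, so 44.4% were called against 39.5% of all tested genes. Those that rose, each without overlap, were CDKN1A (1.38-fold, edgeR adjusted p = 0.0247), JUNB (1.20-fold, edgeR adjusted p = 0.000929) and KLF10 (1.28-fold, edgeR adjusted p = 0.00643). HOOK2 on the opposite strand holds 14.2% of the exonic bases of JUNB. The 1 that fell was COL1A1, a collagen gene, at 35.2, 32.0 and 29.4 CPM in the controls and 21.2, 21.0 and 20.5 CPM in shtRF (1.54-fold lower, edgeR adjusted p = 2.88e-07). COL1A1 is also a marker of fibroblasts, and the 3 measured fibroblast markers of 4 listed summed to 29.7 to 35.6 CPM in the controls and 20.6 to 21.3 CPM in shtRF. Nearly all of this was COL1A1 itself, with COL1A2 at means of 0.188 and 0.146 CPM and PDGFRB at 0.114 and 0 CPM. CCN2, a widely used target, was barely present, with 12 counts in the controls together and 6 in shtRF.

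**Figure D5:**
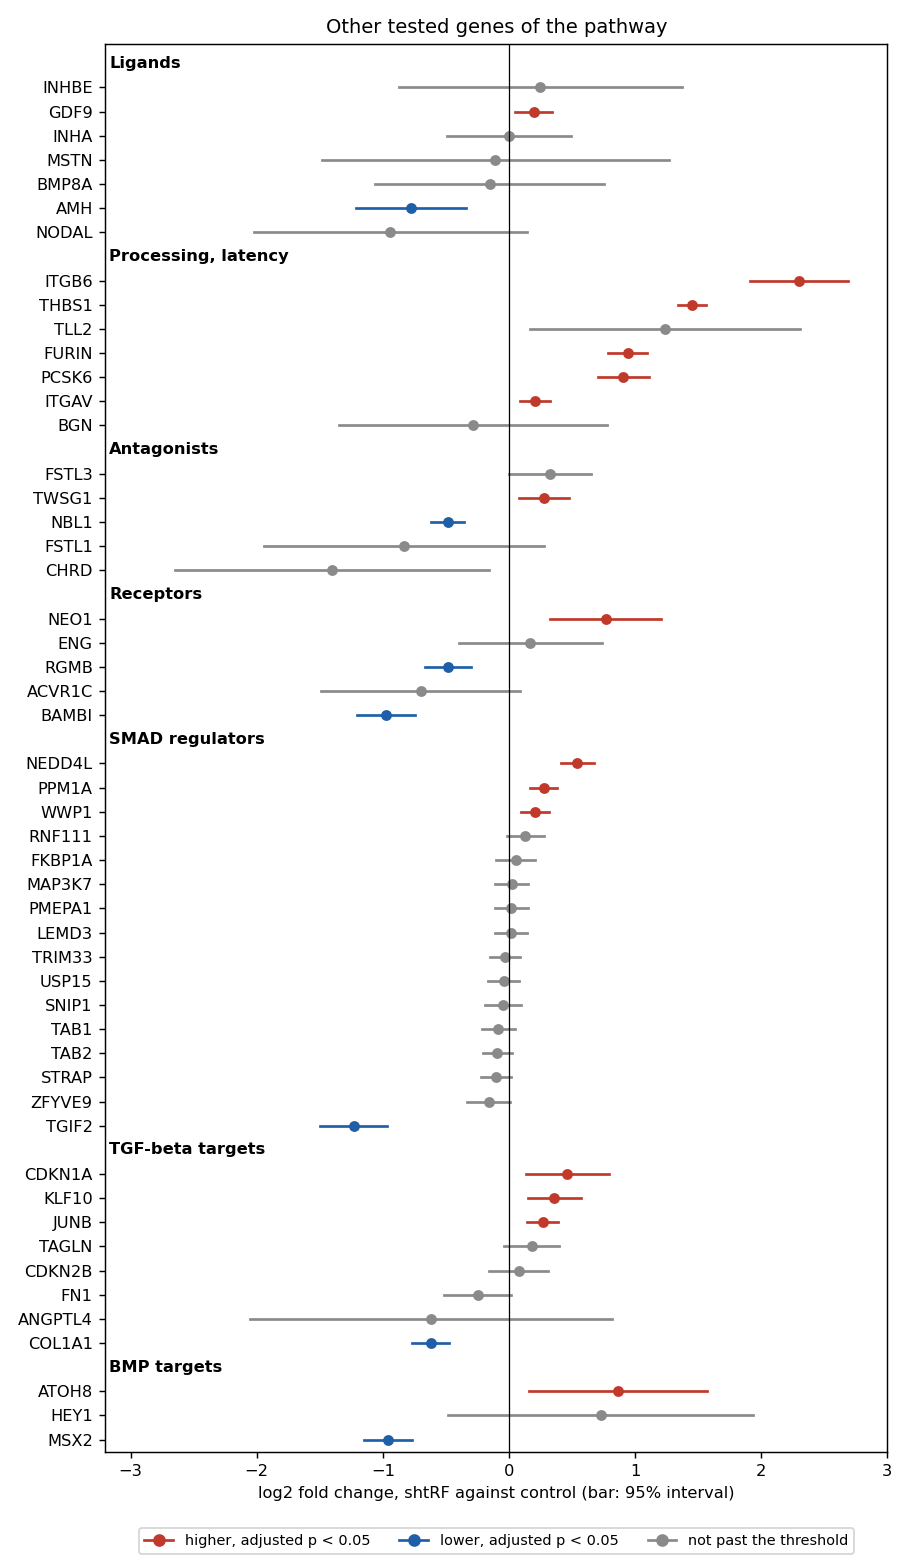
Log2 fold change of shtRF against control for the other tested genes of the pathway, grouped by role, with the 95% interval of the edgeR fit as a bar and colours for genes higher (red, 15) or lower (blue, 7) at an adjusted p under 0.05. ITGB6 at 2.30 and THBS1 at 1.45 lie farthest to the right among the called genes, and TGIF2 at -1.23 farthest to the left.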

How the data were processed

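Messenger RNA of 6 libraries of MDA-MB-453 cells, 3 per group by their titles, was sequenced as read pairs from a stranded kit. The deposited counts are raw read counts per gene made by the authors. The processing notes of the submitters name Trimmomatic 0.36, featureCounts of Subread 1.5.1, edgeR 3.12.1 and GRCh38. The aligner, the strand setting and whether a pair counted once are not given in the sources used here. A deposited RPKM table was not used, because the copy here ends partway through the genome.

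Counts were filtered with filterByExpr (minimum count 10) and TMM-scaled (factors 0.961 to 1.03), and shtRF was compared with control by the quasi-likelihood test of edgeR 4.0.16 in R 4.3.3, without a replicate term, Benjamini-Hochberg adjusted over all 19628 tested genes at 0.05. CPM are counts per 1000000 of the TMM-scaled library size, and RPKM divided CPM by the exonic length in kilobases. The fit was tested on simulated data. Intervals cover the fit, and floors cover counting error only. No batch was labelled.

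The members and the list of further pathway genes were chosen with earlier results of these data known. Values per library were given for members called with a log2 fold change of at least 0.58 in size and a mean of at least 1 CPM, and for ID genes, SMADs and receptors of at least 1 CPM. Of the further genes, the 10 with the largest called change, at least 1 CPM and no overlap were named. COL1A2, PDGFRB, CCN2, CDKN1A, JUNB, KLF10, NBL1, RGMB, TWSG1, FSTL3, GDF9, ATOH8 and HEY1 were added after their values were seen. Of the tested further genes and the markers, 1 each is counted but not reported here by name. Library values of INHBB, TGFB1, TGFB2, TGFB3, BMP4, GDF11, BMP1, LTBP1, LTBP2, LTBP3, LTBP4, FST, TGFBR2, SKIL, SMURF1 and SMURF2 were added after their values were seen. The alternatives used scaling by RLE or by upper quartile, left out the filter or asked for 1 CPM in 3 libraries, and used DESeq2 1.42.0, halved counts, a replicate block, only genes with under 10% exon overlap, or all libraries but 1.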

Additional observations from a re-analysis of the deposited data

How the results depend on the processing

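Over 14 alternative analyses, 40 members gave 552 values, of which 483 kept direction and side of the threshold, 33 lost a call, 13 gained one and 23, from 6 members, changed sign. Of these 23, 0 were called in either analysis: SMAD5 and TGIF1 changed sign in 7 each, TGFBR3 in 4, BMP8B and SMAD4 in 2 each and ACVR1 in 1. Leaving out 1 library at a time, the log2 fold change ran from -0.07 to 0.05 for SMAD5, -0.03 to 0.04 for TGIF1, -0.75 to 0.76 for TGFBR3, -0.20 to 0.84 for BMP8B, -0.10 to 0.05 for SMAD4 and -0.01 to 0.10 for ACVR1. With upper-quartile scaling SMAD5 and TGIF1 were both at -0.03, with 1 CPM in 3 libraries both at -0.01 and with halved counts at -0.01 and -0.00, and with under 10% exon overlap both were at -0.00. Without a filter SMAD5 was at -0.00, and with the replicate block TGFBR3 was at 0.00. Of the 21 called members, 15 kept the call in every alternative that tested them. BMPR2 (highest adjusted p 0.248) lost it in 10, SMURF1 (0.289) in 9, LTBP1 (0.126) in 5, BMPR1B (0.111) in 4, BMPR1A (0.156) in 3 and BMP1 (0.107) in 2. The call of SMURF1 was lost without control 1 (0.157), control 2 (0.117), shtRF 2 (0.289) or shtRF 3 (0.102), and that of BMPR2 without control 1 (0.248), shtRF 1 (0.175) or shtRF 2 (0.151). LTBP2, LTBP3, LTBP4, TGFBR2 and ID2 gained a call in some, LTBP3 in 6 of them; TGFBR2 passed only without control 3 (adjusted p 0.0411), as did ID2 (0.0333), and LTBP4 only without control 1 (0.0251). All 139 values of the 10 further genes kept their call. Counts of members higher ran from 10 to 13 and lower from 6 to 10.

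Upper-quartile scaling moved the median log2 fold change of processing and latency genes to -0.20, of SMADs to 0.01 and of SMAD regulators to -0.12. The median of all tested genes moved from -0.0025 to -0.0388 with it. Of the antagonists, FST alone was tested in the main fit. Without a filter all 3 entered, and their median was -3.44. NOG and GREM1 each had 4 counts in the controls together and 0 in shtRF, so that median gives no size of change. Leaving out 1 library at a time, medians ran from 0.06 to 0.40 for the ligands, -0.22 to -0.09 for processing and latency, 0.09 to 0.22 for the receptors, -1.12 to -0.14 for the antagonists and -0.14 to -0.02 for the SMAD regulators. In the main fit the middle ligands by log2 fold change were TGFB3 at 0.24 and BMP8B at 0.25. BMP8B, under 1 CPM, was at 0.84 without control 1, 0.09 without control 2 and -0.06 without control 3. TGFB3 was at 0.24, 0.22 and 0.25 in the same fits. Among the receptors, TGFBR3, also under 1 CPM, was at -0.00 in the main fit and 0.76 without control 1. So genes too low to place moved these medians, and the other shifts were not tested.

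Over all tested genes, deviations of same-numbered libraries correlated at 0.018, -0.0029 and 0.0045, so no pairing by number was seen. These values cannot settle whether same-numbered libraries were handled together, which the labels do not state. With a replicate block, 13 members were higher and 9 lower, the added call being LTBP3 (adjusted p 0.0409).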
